A study of Mus musculus with 6 samples.

Results

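The E2F and retinoblastoma (RB) family was followed through RNA-seq counts of 6 mouse livers. Its 10 members were taken by name from a fixed list, the transcription factor genes E2f1 to E2f8 and the pocket protein genes Rb1 and Rbl1, out of 27179 genes in the count files, and all 10 were present under their Entrez identifiers. All livers came from C57BL/6 mice: 3 carried the wild-type genotype and 3 were deficient in Mettl3, whose product is the enzyme that adds N6-methyladenosine (m6A) to RNA. The sources used here give neither age nor sex, nor how Mettl3 was made deficient and in which cells. Nothing in the labels ties each library to a separate animal, so the p-values rest on variation among these 6 samples.

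Most E2F proteins bind DNA with a DP partner (from Tfdp1 or Tfdp2), while E2f7 and E2f8 bind without one, and together they switch genes for DNA replication and cell division on or off. In resting cells the pocket proteins (RB, p107 from Rbl1 and p130 from Rbl2) hold them in check, until cyclin-dependent kinases phosphorylate the pocket proteins. E2f1, E2f2 and E2f3 are classed as activators, E2f4 and E2f5 as repressors that work through pocket proteins, and E2f6, E2f7 and E2f8 as repressors that work without them. Adult hepatocytes rarely divide, many are polyploid, and E2f7 and E2f8 are known for promoting that polyploid state while E2f1 counters it.

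The libraries held 31960205 to 36025772 counts. Mettl3 itself was lower in every Mettl3-deficient library, at 4.94 to 6.60 CPM (depth-scaled counts with TMM factors) against 12.1 to 14.3 CPM in wild type. Hepatocyte markers were high in all libraries, with a summed level of 133342 to 169675 CPM in wild-type and 44879 to 71796 CPM in Mettl3-deficient livers. Of these 6 markers 1 (Alb) was called lower, beside 10.5% of all tested genes. All 6 had log2 fold changes below 0, from -1.54 to -0.59 with a median of -0.96. Of them 5 were lower without overlap between the groups, against 21.9% of all tested genes. Wild type replicate 1 and Mettl3-deficient replicates 1 and 2 held 4747 to 6508 counts of Y-linked transcripts, and the other 3 libraries held 0, so each group drew on more than 1 animal and the groups differ in their mix of sexes. Wild type replicate 1 also stood apart from the other wild-type libraries, with a chi-square per degree of freedom of 303 or more against them and 17.1 between those libraries. Pairs of Mettl3-deficient libraries gave 90.4 to 246, so wild type replicates 2 and 3 were the most alike pair within a group.

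Several members are themselves controlled by E2F sites in their promoters, so the promoter stretches that hold such letters are shown here for those members that have an entry. RefSeq promoter windows of GRCm38.p6 (250 bases before to 50 after an annotated start) were found for 7 of the 10 members, 9 windows in all. E2f4, E2f5 and Rb1 had no entry. On both strands, the longer form of an E2F site was searched as TTTCCCGC, TTTCGCGC, TTTGCCGC or TTTGGCGC, and the shorter form as the same letters without the first T, so that each longer site also holds a shorter one. The CHR element, read by the MuvB complex in cell cycle genes, was searched as TTTGAA. Capitals mark the matches, and positions count from the annotated start, with -1 as the last base before it.
Rbl1 (chr2:157204535-157204624, minus strand, positions -90 to -1): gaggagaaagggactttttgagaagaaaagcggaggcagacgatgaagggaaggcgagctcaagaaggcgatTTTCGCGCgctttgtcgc
E2f3 (chr13:29986064-29986153, minus strand, positions -90 to -1): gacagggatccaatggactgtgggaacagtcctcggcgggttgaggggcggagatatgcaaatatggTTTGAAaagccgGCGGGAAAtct
E2f3 (chr13:29986030-29986051, minus strand, positions 13 to 34): aggaccTTGGCGCgtaaaccgt
E2f2 (chr4:136172297-136172323, plus strand, positions 24 to 50): atttggcggcatatagTTTGGCGCtaa
E2f8 (chr7:48881689-48881718, minus strand, E2F site at -111 to -105): agaggcgcggaTTGGCGCgcggggccccgg
E2f8 (chr7:48881599-48881628, minus strand, positions -32 to -3): gagcgggttaatTTCAAAtcgggggctgga
E2f7 (chr10:110745204-110745363, plus strand, E2F sites at -223 to -217, -198 to -191 and -92 to -86): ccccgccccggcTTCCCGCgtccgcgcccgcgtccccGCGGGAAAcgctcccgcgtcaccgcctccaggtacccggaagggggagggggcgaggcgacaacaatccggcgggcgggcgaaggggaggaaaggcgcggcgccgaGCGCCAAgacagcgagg
E2f6 (chr12:16810875-16810964, plus strand, positions -90 to -1, shown because it holds no match): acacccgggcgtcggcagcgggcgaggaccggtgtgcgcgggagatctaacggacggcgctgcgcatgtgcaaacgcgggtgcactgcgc

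The windows at the outer starts of Rbl1, E2f2, E2f3 and E2f7 each held 1 longer E2F site, and the E2f8 window held 1 shorter site. Of all 32851 windows of 300 bases, 2.26% held the longer form, 9.57% the shorter form and 17.9% the CHR letters. The E2f3 window held both kinds of letters side by side, CHR at -23 to -18 and the E2F site at -11 to -4, and the E2f8 window held CHR at -20 to -15. E2f2 also had CHR letters at -31 to -26 of a second window, whose start lies 8508 bases inside the gene. The windows of E2f1, the inner start of E2f3 and E2f6 held none of these letters. The E2f1 and E2f8 windows belong to starts 466 and 477 bases inside those genes, and the promoters at their outer starts were not analysed here. A match is a run of letters, and no binding was measured.

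Of the 9 members with enough reads to be tested, 5 were higher in Mettl3-deficient livers, 2 were lower and 2 were not called. All 3 activators E2f1, E2f2 and E2f3 rose, with E2f8 and Rbl1, while E2f5 and Rb1 fell. Calls rest on edgeR's quasi-likelihood test, with p-values adjusted by Benjamini and Hochberg over all 14380 tested genes and a threshold of 0.05. In that comparison 23.8% of all tested genes were called, 13.3% as higher and 10.5% as lower. Of all tested genes, 23.9% were higher without overlap between the groups and 21.9% were lower without overlap. E2f7 did not pass the filter on low counts. The median log2 fold change of the 9 tested members was 1.22, beside 0.01 over all tested genes. The members were chosen with earlier results of these data known, so these counts and this median are not independent evidence of a direction. In bulk liver, fewer cells of a type and less RNA per cell cannot be told apart.

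**Figure D1:**
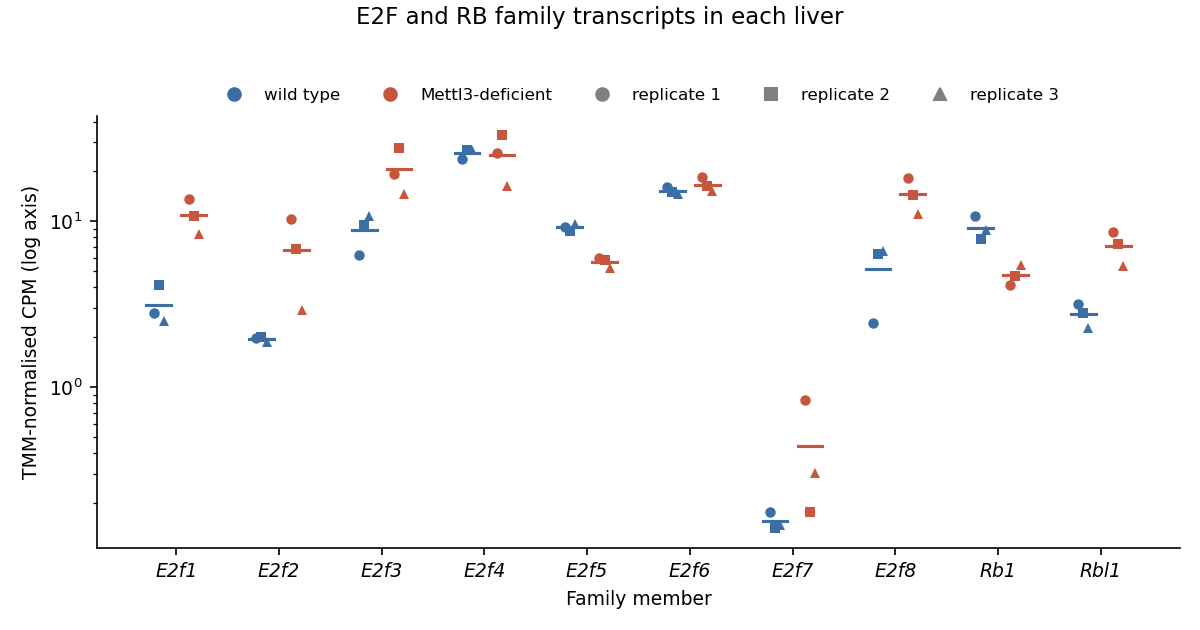
TMM-normalised CPM (log axis) of each of the 10 members in each library, with wild type in blue, Mettl3-deficient in red, marker shapes for replicate numbers and bars for group means. E2f1, E2f2, E2f3, E2f8 and Rbl1 lie higher in every Mettl3-deficient library than in any wild-type library, E2f5 and Rb1 lie lower in every one, and E2f4, E2f6 and E2f7 overlap. Of all tested genes, 23.9% lie higher and 21.9% lower without overlap.

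Among the activators, E2f1 (Entrez 13555, GRCm38 chr2:154559400-154569892) had the smallest p of the family. Its level was 2.81, 4.14 and 2.51 CPM in the wild-type libraries and 13.7, 10.7 and 8.41 CPM in the Mettl3-deficient libraries. The lowest Mettl3-deficient liver thus lay above the highest wild-type liver. The log2 fold change of E2f1 was 1.79 ± 0.29 (SE), a 3.46-fold rise, with an edgeR adjusted p of 0.00742. E2f1 drives entry into DNA synthesis and can also promote cell death. It was called under each of the 15 alternatives run, and its edgeR adjusted p was at most 0.0346 when 1 library was left out.

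E2f2 (Entrez 242705, chr4:136172274-136196057), an activator also known from blood cell precursors, stood at 1.99, 2.02 and 1.89 CPM in wild-type livers. Mettl3-deficient livers held 10.4, 6.82 and 2.94 CPM. The wild-type libraries were close together (SD 0.0689 CPM, n = 3), whereas Mettl3-deficient replicate 3 held less than the other Mettl3-deficient libraries and was nearest to wild type. E2f2 rose 3.41-fold (log2 fold change 1.77 ± 0.44, edgeR adjusted p = 0.0261). The call was lost in 5 of the 6 fits that left out 1 library, where the log2 fold change ran from 1.31 to 2.13 and the edgeR adjusted p reached 0.095. It held without Mettl3-deficient replicate 3 (edgeR adjusted p = 0.00656). It was also lost with limma-voom (adjusted p = 0.0749).

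E2f3 (Entrez 13557, chr13:29906575-29986064) had the highest CPM of the activators, before scaling for gene length. Its level was 6.29, 9.48 and 10.7 CPM in wild type and 19.3, 27.8 and 14.7 CPM in Mettl3-deficient livers, without overlap. E2f3 rose 2.33-fold (log2 fold change 1.22 ± 0.29, edgeR adjusted p = 0.0226). The counts cover the whole gene, so its transcripts from the outer and the inner start were not separated. The call was lost without wild type replicate 2 (edgeR adjusted p = 0.0654), Mettl3-deficient replicate 1 (0.0629) or Mettl3-deficient replicate 2 (0.0652).

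The activators' size of change differed between libraries with and without Y-linked transcripts. Among libraries with these transcripts the log2 ratio of group means was 2.12 for E2f1, 2.11 for E2f2 and 1.91 for E2f3, and among libraries without them it was 1.34, 0.59 and 0.54. All these ratios were above 0, but each rests on 3 libraries. The first set holds 1 wild-type library (replicate 1) and the second holds 1 Mettl3-deficient library (replicate 3). The presence of these transcripts cannot be told apart from those single libraries, and the difference between the ratios was not tested. With the Y-linked split as a covariate, E2f1 was still called, while E2f2 (log2 fold change 1.35, edgeR adjusted p = 0.0676) and E2f3 (1.21, edgeR adjusted p = 0.0511) were not, so that 3 members were higher and 2 lower.

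The repressors that act through pocket proteins did not move together. E2f4 (Entrez 104394, chr8:105297663-105305370), which carries much of the E2F bound to DNA in resting cells, had the highest level of the listed members. It stood at 23.9, 27.1 and 26.8 CPM in wild type and 26.0, 33.0 and 16.4 CPM in Mettl3-deficient livers. The groups overlapped, with both the highest and the lowest value in Mettl3-deficient livers, and the log2 fold change was -0.04 ± 0.24 (edgeR adjusted p = 0.912). The sign turned with library size alone (0.45, edgeR adjusted p = 0.217) and without Mettl3-deficient replicate 3 (0.19, edgeR adjusted p = 0.439).

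E2f5 (Entrez 13559, chr3:14578602-14606309), the close relative of E2f4 that pairs mainly with p130, was lower in every Mettl3-deficient library. It held 9.27, 8.70 and 9.61 CPM in wild type and 6.06, 5.85 and 5.24 CPM in Mettl3-deficient livers, a narrow spread in both groups. The log2 fold change was -0.69 ± 0.19, 1.61-fold lower, with an edgeR adjusted p of 0.0379, the highest among the called members. E2f5 kept its call in 1 of the 6 fits that left out 1 library, where the edgeR adjusted p reached 0.118. Keeping all low genes also ended the call (0.0614), as did scaling by library size alone (log2 fold change -0.21, 0.47).

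Of the repressors that act without pocket proteins, E2f8 rose, E2f6 was not called and E2f7 was rare. E2f8 (Entrez 108961, chr7:48866429-48882073) held 2.45, 6.40 and 6.62 CPM in wild type and 18.3, 14.5 and 11.1 CPM in Mettl3-deficient livers. Wild type replicate 1 held less than the other wild-type libraries, and the groups did not overlap. E2f8 rose 2.84-fold (log2 fold change 1.51 ± 0.38, edgeR adjusted p = 0.0278). Without wild type replicate 1 the log2 fold change was 1.17 and the call held (edgeR adjusted p = 0.0197). Of the 6 fits with a library dropped 4 lost it, at an edgeR adjusted p of up to 0.0977. The log2 ratio of means was 2.74 among libraries with Y-linked transcripts and 0.78 among those without, and this difference was not tested.

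E2f7 (Entrez 52679, chr10:110745439-110787384), the partner of E2f8 in holding back E2F targets, had 5, 4 and 4 counts in the wild-type libraries and 34, 8 and 12 in the Mettl3-deficient libraries. Its level was 0.156 ± 0.0193 CPM in wild type and 0.442 ± 0.354 CPM in Mettl3-deficient livers (SD, n = 3), with most of the second mean from replicate 1. Mettl3-deficient replicate 2 lay within the wild-type range, at 0.177 CPM. In the fit with no filter on low counts the log2 fold change was 1.49 (edgeR adjusted p = 0.249), and the Mettl3-deficient libraries spread from 0.177 to 0.844 CPM.

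E2f6 (Entrez 50496, chr12:16810909-16826752), which recruits Polycomb proteins to silence germ line genes, was nearly level. It held 16.2, 15.1 and 14.6 CPM in wild type and 18.4, 16.3 and 15.2 CPM in Mettl3-deficient livers. The log2 fold change was 0.12 ± 0.15 (edgeR adjusted p = 0.586), and the groups overlapped. With library size alone E2f6 was called higher (0.60, edgeR adjusted p = 0.0288).

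The pocket protein genes moved in opposite directions. Rb1 (Entrez 19645, chr14:73192858-73325951), the tumour suppressor that binds the activator E2Fs, held 10.8, 7.85 and 8.87 CPM in wild type and 4.15, 4.69 and 5.50 CPM in Mettl3-deficient livers. Every Mettl3-deficient library lay below every wild-type library. Rb1 fell 1.92-fold (log2 fold change -0.94 ± 0.23, edgeR adjusted p = 0.0245). The call held in 2 of the 6 fits that left out 1 library, where the log2 fold change ran from -1.05 to -0.81 and the edgeR adjusted p reached 0.0976. Scaling by library size alone gave -0.47 (edgeR adjusted p = 0.159).

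Rbl1 (Entrez 19650, chr2:157145893-157204534) encodes p107, the pocket protein that cycling cells make, and its promoter site is shown above. It held 3.16, 2.79 and 2.29 CPM in wild type and 8.66, 7.35 and 5.42 CPM in Mettl3-deficient livers, without overlap. Rbl1 rose 2.60-fold (log2 fold change 1.38 ± 0.28, edgeR adjusted p = 0.0133). Among libraries with and without Y-linked transcripts the log2 ratios of means were 1.34 and 1.09. The call was lost without wild type replicate 2 (edgeR adjusted p = 0.0509), wild type replicate 3 (0.0524) or Mettl3-deficient replicate 1 (0.0604).

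The third pocket protein gene, Rbl2, which is no member of the list and encodes p130, the form of resting cells, was lower but not called. It held 34.5, 31.3 and 32.4 CPM in wild type and 12.3, 12.3 and 26.2 CPM in Mettl3-deficient livers. Replicate 3 lay near wild type and the other Mettl3-deficient libraries far below it, although the groups did not overlap. The log2 fold change was -0.95 ± 0.30 (edgeR adjusted p = 0.0537), and it was called without Mettl3-deficient replicate 3 (-1.41, 0.00342), with DESeq2 (0.0176) and with limma-voom (0.0344). Of the DP partners, Tfdp1 rose 1.79-fold, with 19.0 ± 1.71 CPM in wild type and 34.1 ± 9.62 CPM in Mettl3-deficient livers (SD, n = 3; edgeR adjusted p = 0.0287). Tfdp2 fell from 28.0 ± 3.86 to 11.4 ± 6.13 CPM (edgeR adjusted p = 0.037). Both calls held only without replicate 1 of wild type or replicate 3 of the Mettl3-deficient group among the 6 fits with a library dropped, and library size alone ended that of Tfdp2 (edgeR adjusted p = 0.0701).

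**Figure D2:**
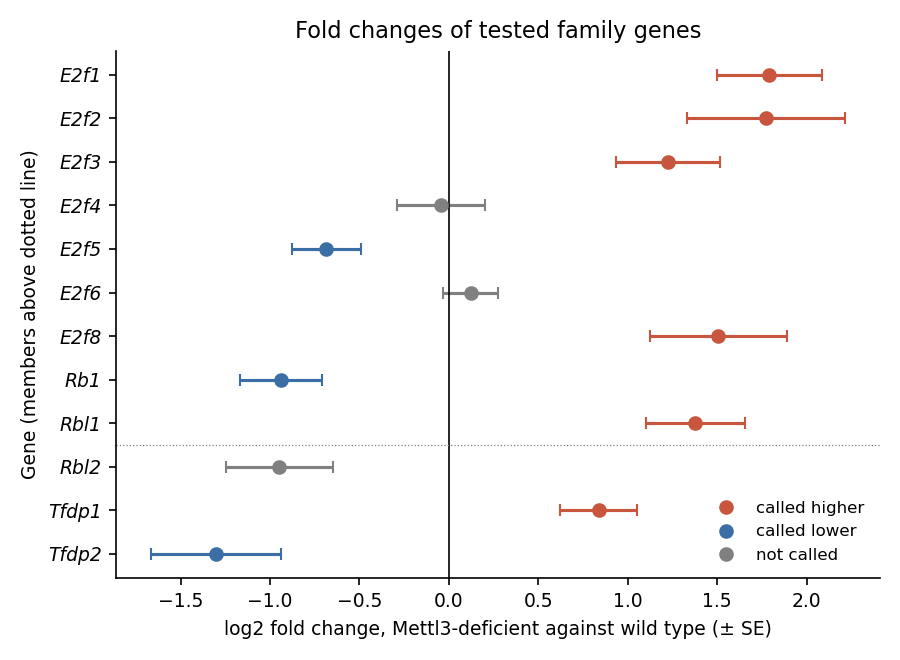
Log2 fold changes (Mettl3-deficient against wild type, bars ± SE) of the 9 tested members and, under the dotted line, of Rbl2, Tfdp1 and Tfdp2. Points in red were called higher, blue lower and grey were not called; the activators, E2f8 and Rbl1 lie between 1.22 and 1.79, and E2f5 and Rb1 at -0.69 and -0.94.

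Levels of different genes were compared as CPM per kilobase of exon, from the merged exons of GENCODE M21. In wild-type livers the order among E2f genes was E2f4 at 10.6 ± 0.726 CPM per kb (SD, n = 3), E2f5 at 5.16 ± 0.259, E2f6 at 2.70 ± 0.141, E2f3 at 1.63 ± 0.421, E2f1 at 0.999 ± 0.274, E2f8 at 0.947 ± 0.431, E2f2 at 0.402 ± 0.0141 and E2f7 at 0.0173 ± 0.00214. E2f3 and E2f1 overlapped across libraries, as did E2f1 and E2f8, while the other neighbours in this order did not. In Mettl3-deficient livers E2f4 stayed first at 10.3 ± 3.39 CPM per kb. E2f3 (3.79 ± 1.23), E2f1 (3.46 ± 0.833), E2f5 (3.21 ± 0.237), E2f6 (2.94 ± 0.286) and E2f8 (2.69 ± 0.660) then lay within each other's spread, neighbour by neighbour.

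As shares of the summed E2f level per kb, the 3 activators made up 11.9, 14.9 and 13.5% in wild-type and 32.6, 30.8 and 29.3% in Mettl3-deficient libraries. These shares were close within each group and far apart between groups, also in Mettl3-deficient replicate 3, whose summed E2f level (20.4 CPM per kb) was near that of wild type (20.7 to 23.3). The share of E2f4 was 47.1 ± 0.284% in wild type and 36.4 ± 4.73% in Mettl3-deficient livers. E2f7 and E2f8 together held 4.23 ± 1.70% and 9.93 ± 1.49%.

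Among the pocket protein genes, Rbl1 made up 7.67, 7.89 and 6.23% of the summed level per kb in wild type. In Mettl3-deficient livers its share was 38.4, 33.8 and 17.1%. Rbl2 led in all 6 libraries, with 66.2 to 70.0% in wild type and 43.3, 44.7 and 65.6% in Mettl3-deficient livers. Replicate 3 again lay nearest to wild type. Rb1 lay above Rbl1 per kb in each wild-type library, and below it in Mettl3-deficient replicates 1 and 2 (0.689 against 1.45 and 0.780 against 1.23 CPM per kb), while in replicate 3 both were near 0.91. The summed level of the 3 genes was 6.31 ± 0.508 CPM per kb in wild type and 4.23 ± 0.922 in Mettl3-deficient livers (SD, n = 3). The sums and shares are descriptions of members already described one by one and were not tested.

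**Figure D3:**
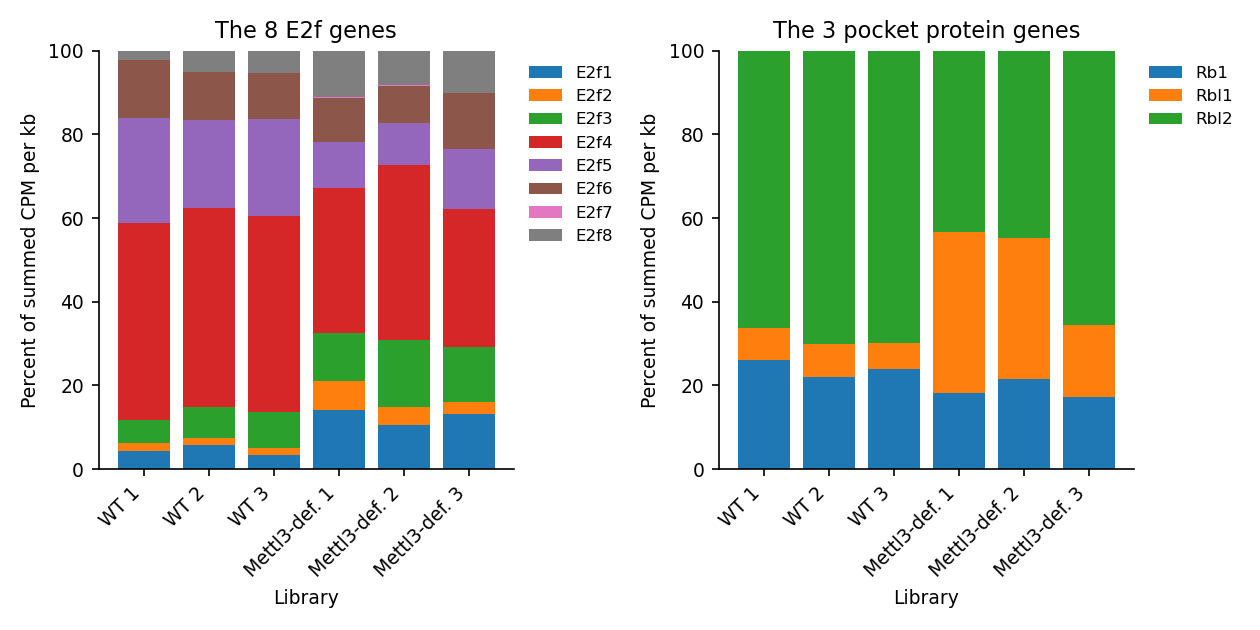
Shares of each gene in the summed CPM per kb of exon, in percent, for the 8 E2f genes (left) and the 3 pocket protein genes (right) in each library. The blocks of E2f1, E2f2 and E2f3 add up to 11.9 to 14.9% in wild-type and 29.3 to 32.6% in Mettl3-deficient libraries, and the block of Rbl1 widens from 6.23 to 7.89% to 17.1 to 38.4%.

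The genes that act on the pocket proteins were mostly not called, as were most of all tested genes (23.8% called). Of 12 tested genes among D-type cyclins, their kinases and CDK inhibitors, 3 rose and 0 fell, with a median log2 fold change of 0.42. Over all tested genes 13.3% were higher and 10.5% lower, with a median of 0.01. The inhibitor Cdkn1a, a target of p53, rose 3.24-fold, with 22.7 ± 9.17 CPM in wild type and 73.6 ± 8.37 CPM in Mettl3-deficient livers (SD, n = 3; edgeR adjusted p = 0.00938). Cdkn2b, an inhibitor of Cdk4 and Cdk6, had 4 counts over the wild-type libraries and 137 over the Mettl3-deficient ones (edgeR adjusted p = 0.0157). Its call was lost without wild type replicate 2 (edgeR adjusted p = 0.0512) and without Mettl3-deficient replicate 1 (0.0579). Ccnd2, a D-type cyclin, rose 2.16-fold (edgeR adjusted p = 0.0393) and kept its call in 1 of the 6 fits with a library left out. So the called genes of this list include both brakes and drivers of the cycle. Cdk4 stood at 0.46 on the log2 scale (edgeR adjusted p = 0.102). Library size alone gave 6 higher genes in this list.

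Of 11 tested DP partner, DREAM and MuvB genes, 3 rose and 2 fell, with a median of 0.17. Of all tested genes, 13.3% were called higher and 10.5% lower. DREAM is the assembly of p130 or p107, E2f4, a DP protein and the MuvB core that silences cell cycle genes at rest. The 3 that rose were Tfdp1, Foxm1 and Mybl1. Foxm1, which joins MuvB to switch on mitotic genes, rose 9.48-fold, from 0.213, 1.20 and 0.554 CPM to 9.71, 5.40 and 3.67 CPM (edgeR adjusted p = 0.0118). Mybl1, a MYB relative, rose 14-fold, from 0.296 ± 0.200 to 4.22 ± 2.91 CPM (edgeR adjusted p = 0.0127). Both kept their calls in each of the 15 alternatives, but the size moved with the library left out. The log2 fold change of Foxm1 went from 3.24 to 4.02 without wild type replicate 2, and that of Mybl1 from 3.81 to 3.16 without Mettl3-deficient replicate 1. Mybl2, the MYB protein best known as a MuvB partner, was at 0.421 and 0.500 CPM (edgeR adjusted p = 0.743), and the MuvB core genes Lin9, Lin37, Lin52 and Lin54 were not called. Rbbp4, a histone chaperone of the core, was the second gene to fall beside Tfdp2 (edgeR adjusted p = 0.0371). With library size alone 0 genes of this list fell.

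Target genes of E2F for the start of DNA synthesis mostly rose or were not called. Of 25 tested genes 14 rose and 1 fell, with a median of 0.90. Of all tested genes, 13.3% were called higher and 10.5% lower, with a median of 0.01. Mcm2, part of the replicative helicase, rose from 1.63, 1.52 and 2.81 CPM to 20.2, 20.8 and 13.6 CPM (9.16-fold, edgeR adjusted p = 0.00145). Mcm4 and Mcm3 rose 4.23- and 4.61-fold, and Rrm1, the large subunit of ribonucleotide reductase, rose 2.44-fold, and all 4 stayed called whichever library was dropped. The list did not move as one, since 10 genes were not called, among them Pcna, Rrm2 and Pola1. Tk1, a thymidine kinase, fell from 63.7 to 21.9 CPM (edgeR adjusted p = 0.0226). Its call was lost without wild type replicate 2 or 3 and without Mettl3-deficient replicate 1 or 2, where 0 genes of the list were lower. Leaving out wild type replicate 2 gave 6 higher genes, leaving out Mettl3-deficient replicate 1 or 2 gave 7 each, and the Y-linked covariate gave 8.

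The mitotic genes that DREAM holds silent at rest had the highest median of the 6 lists, 2.87. Their summed level was 13.4 CPM in wild type replicate 1, where 8 of the 24 genes had 0 counts, and 41.2 and 46.9 CPM in the other wild-type libraries, against 164 to 311 CPM in Mettl3-deficient livers. Without wild type replicate 1 the median was 2.57 and 21 genes rose. Of 24 tested genes, 19 rose and 0 fell, beside 13.3% of all tested genes higher and 10.5% lower. In 23 of the 24 the groups did not overlap and the Mettl3-deficient level was higher, against 23.9% of all tested genes. Bub1b, a spindle checkpoint kinase, held 0.803 ± 0.0215 CPM in wild type and 6.90 ± 1.67 CPM in Mettl3-deficient livers (SD, n = 3; edgeR adjusted p = 0.00146). Aurka, Nek2 and Prc1, which act in spindle assembly, centrosome separation and cytokinesis, rose 4.06-, 7.23- and 7.47-fold. Leaving out wild type replicate 2 gave 8 higher genes, and leaving out Mettl3-deficient replicate 1 or 2 gave 7 and 12. Some genes of these last 2 lists were known to have risen before the lists were written, so the counts are not independent evidence of a direction.

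**Figure D4:**
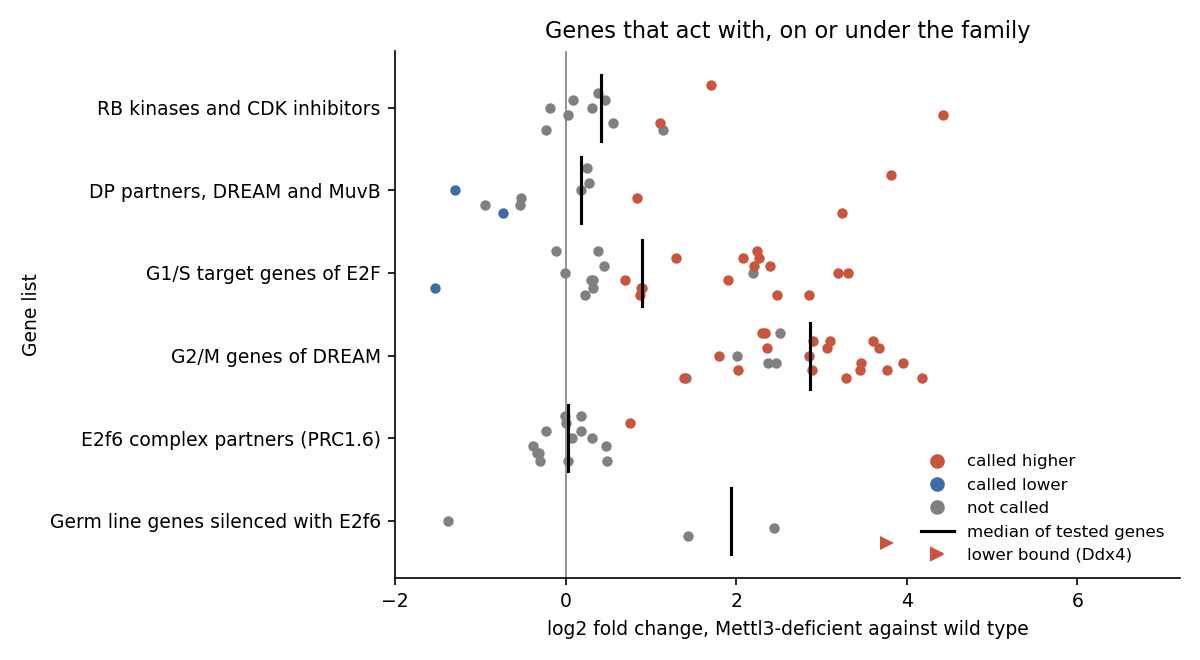
Log2 fold change (Mettl3-deficient against wild type) of each tested gene in 6 lists of genes around the family, coloured by call, with black bars for list medians; the triangle is a lower bound for Ddx4, which had no wild-type counts. The mitotic genes centre on 2.87, the G1/S targets on 0.90, and the E2f6 partners on 0.02.

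Most partners of E2f6 were not called, as were most of all tested genes (23.8% called). Of 15 tested genes of its Polycomb complex 1 rose and 0 fell, beside 13.3% of all tested genes higher and 10.5% lower. Their median log2 fold change was 0.02, with a range of -0.39 to 0.76. The groups did not overlap for 2 genes that were higher and 4 that were lower, against 23.9% and 21.9% of all tested genes. The gene that rose was Rybp, a RING-binding adaptor (log2 fold change 0.76 ± 0.19, edgeR adjusted p = 0.0269), which lost its call in 4 of the 6 fits with a library dropped. Library size as the only scaling made 7 of these genes higher, Max and Pcgf6 among them, and Ehmt1 turned from -0.39 to 0.088. Of 10 germ line genes that E2f6 and this complex silence, 4 had enough reads to be tested. Ddx4, a germ cell RNA helicase, had 0 counts in wild type and 20, 31 and 11 in the Mettl3-deficient libraries, which is at least 13.6-fold higher against a floor of 3 counts over the wild-type group (edgeR adjusted p = 0.0159). Its level was at most 0.686 CPM, and the call was lost without Mettl3-deficient replicate 1 or 2. Stag3, Smc1b and Sycp3 were not called, and of the 6 untested genes Mael, Tdrd1 and Tex101 had 0 counts in every library.

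By pattern over the 6 libraries, the tested genes most like E2f1 were Incenp, Mms22l and Tgm2, with root mean square differences of 0.146, 0.147 and 0.179 between centred log2 CPM profiles. Incenp belongs to the mitotic passenger complex, Mms22l acts in repair at replication forks, and Tgm2 is a transglutaminase. Those most like Rbl1 were Gins3 (0.135), a replication factor, Coil (0.140), the Cajal body protein, and Gimap9 (0.143), a GTPase of immune cells. Their rise follows from the way they were picked. Gins3 was called in 6 of the 15 alternatives and Incenp in 13.

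Markers of other liver cells were read in the same libraries, where 13.3% of all tested genes were called higher and 10.5% lower. Macrophage and Kupffer cell markers summed to 142, 384 and 447 CPM in wild type and 448, 752 and 427 CPM in Mettl3-deficient livers, and 2 of 8 (Cd68 and Lyz2) rose. Lymphocyte markers summed to 2.84, 2.69 and 3.25 CPM in wild type and 4.49, 4.92 and 4.002 CPM in Mettl3-deficient livers, with 0 of 7 called. Neutrophil markers summed to 0.778 to 1.88 and 2.36 to 4.96 CPM, with 1 of 2 tested (S100a9) higher and Ly6g at 0 in all libraries. Of the cholangiocyte markers 1 of 5 (Sox9) rose, at summed levels of 83.9 to 108 and 75.9 to 224 CPM. Endothelial markers summed to 131 to 203 and 121 to 157 CPM. Of them 1 of 6 (Lyve1) was called lower, and log2 fold changes ran from -1.28 to 0.25. Erythroid markers summed to 78.8 to 186 and 92.6 to 168 CPM. Of these, 1 of 4 tested (Klf1) was called lower, and log2 fold changes ran from -1.59 to 0.96. Stellate cell markers summed to 273 to 319 and 220 to 418 CPM, with 0 of 5 called. The part of these cells in the changes of the E2F and RB family was not tested.

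The sources used here do not state whether counting used strand, so reads of overlapping genes on the other strand could not be told apart where exons overlap. By GENCODE M21, Rb1 shares 488 bases of exon with Rcbtb2 and 408 with Lpar6, E2f5 shares 26 with Rbis, and Rbl2 shares 693 with Aktip and 892 with the noncoding Gm45464. Rcbtb2, Lpar6, Rbis and Aktip had log2 fold changes of -0.02, -0.40, 0.17 and 0.12 and were not called. E2f8 shares 610 bases with the noncoding Gm2788 and E2f7 shares 86 with 1700020G17Rik, and these noncoding genes were not used here.

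As a feature that the choice of members did not use, the letters GGACT, a frequent core of m6A sites, were counted in the longest protein-coding transcript of each member. The members held 2 to 7 of them, or 0.726 to 1.51 per kb, beside a median of 1.01 per kb over 19349 genes with transcripts of at least 1000 bases. Rbl1 (7 in 4862 bases) and E2f3 (6 in 5097 bases) held the most, and E2f4 was densest with 3 in 1993 bases. Members that rose lay between 0.726 (E2f1) and 1.44 per kb (Rbl1), those that fell at 0.859 (Rb1) and 1.12 per kb (E2f5), so the ranges overlapped. These are counts of letters, and no methylation was measured in these libraries.

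Across other settings the directions held while many calls did not. The 7 called members had the same sign in each of the 15 alternatives, and E2f1 alone was called whichever library was dropped. Dropping wild type replicate 1 left 4 members higher and 2 lower, dropping replicate 2 left 1 higher and 0 lower, and dropping replicate 3 left 2 higher and 0 lower. Dropping Mettl3-deficient replicate 1 left 1 higher and 0 lower, replicate 2 left 2 higher and 0 lower, and replicate 3 left 5 higher and 1 lower. Counts over all genes fell in 4 of these fits as well, to between 1382 and 1859 called genes from 3420.

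**Figure D5:**
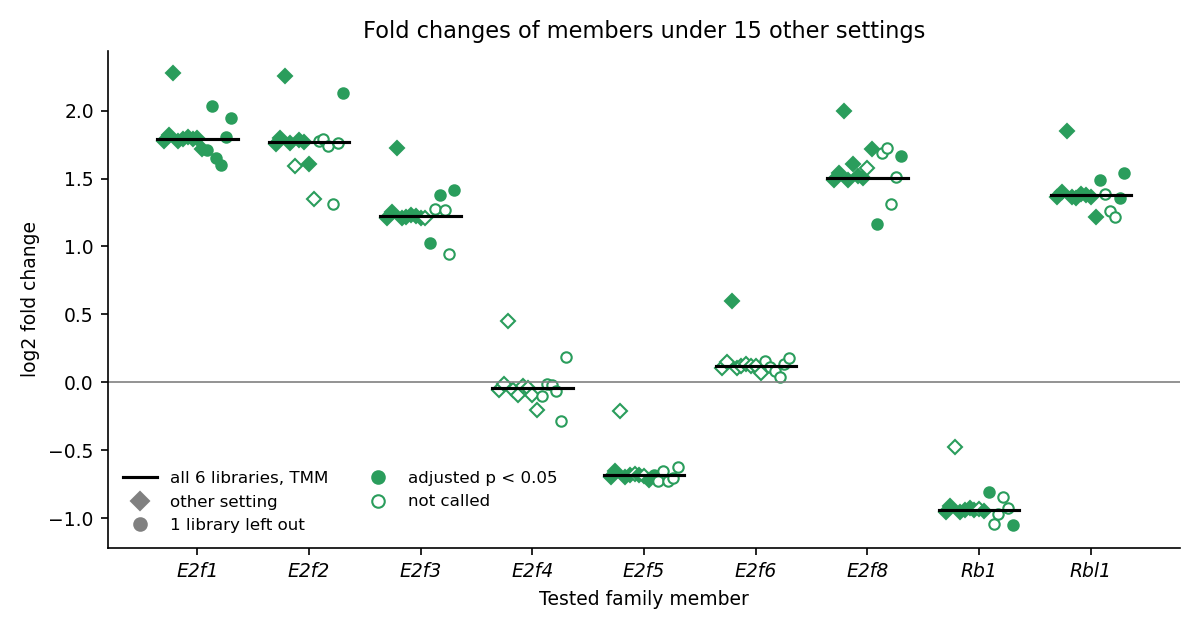
Log2 fold change of each tested member with all 6 libraries (black bar), under 9 other settings (diamonds) and with 1 library left out (circles); filled symbols have an adjusted p under 0.05. The 7 called members keep their side of 0 throughout, E2f4 lies on both sides, and the top diamond of each column is the scaling by library size alone.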

How the data were processed

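Per the labels, total RNA of flash-frozen livers was depleted of ribosomal RNA and made into directional libraries; the authors used HISAT2, featureCounts and build mm10 per the submitters' processing notes (versions, annotation and strand setting: not given in the sources used here). These files, as deposited, hold whole-number raw counts for Entrez gene identifiers. Of 27179 identifiers, 25275 matched RefSeq GRCm38.p6, which gave symbols and coordinates.

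Groups came from the titles (3 libraries each, 31960205 to 36025772 counts). The test was edgeR 4.0.16 in R 4.3.3, with TMM factors, filterByExpr (minimum count 10, minimum total 15; 14380 genes) and the robust, two-sided quasi-likelihood F test on group alone. SE were derived from fold change and F. The fit was also run on counts simulated from its own dispersions, with equal numbers of raised and lowered genes. That run does not bear on the scaling between the groups in these data. Alternatives were RLE, upper-quartile and library-size scaling, DESeq2 1.42.0, limma-voom (limma 3.58.1), no filter, CPM of at least 1 in 3 libraries, a replicate block, a covariate for libraries with over 100 Y-linked counts, and each library left out.

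Named genes were the 10 members, Rbl2, Tfdp1, Tfdp2, Mettl3, up to 4 genes per pathway list by p and the 3 genes most like each of the 2 members with the smallest p; Mybl2, Rbbp4, Tk1, the Lin genes, Pcna, Rrm2, Pola1, the named cell type markers and overlapping genes were named after their values were seen. Members and lists were chosen with earlier results of these data known.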

Additional observations from a re-analysis of the deposited data

Results flagged for a closer look

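E2f4 went in opposite directions in libraries with and without Y-linked transcripts. Among libraries with them, both Mettl3-deficient livers (26.0 and 33.0 CPM) lay above the wild-type liver (23.9 CPM), a log2 ratio of means of 0.31. Among libraries without them, the Mettl3-deficient liver (16.4 CPM) lay below both wild-type livers (27.1 and 26.8 CPM), a log2 ratio of -0.71. The difference was not tested. It rests on 1 wild-type library with these transcripts and 1 Mettl3-deficient library without them.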

How the results depend on the processing

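Scaling by library size alone put the median log2 fold change at 0.49 in place of 0.01: 4810 genes were higher and 595 lower (89.0% of calls higher, against 55.7% with TMM). It left 0 members lower, and gave 6 higher RB kinase and CDK inhibitor genes, 0 lower DREAM genes, 7 higher E2f6 partners, 2 higher germ line genes and log2 fold changes of 0.45 for E2f4 and 0.088 for Ehmt1. DESeq2 gave 1 lower E2f6 partner and 1 lower germ line gene. With no filter on low counts 1 member was lower, and requiring 1 CPM left 0 higher germ line genes. The labels do not say whether same-numbered libraries form pairs. Correlations of their deviations across genes were 0.0839, -0.0174 and 0.0335, and not every library correlated best with its own number. These values cannot decide whether a pairing exists. With the replicate block 4 members were higher and 0 lower, 8 G1/S genes higher and 0 lower, 9 G2/M genes higher and 0 E2f6 partners higher. The Y-linked covariate gave 3 higher members and 8 higher G1/S genes.

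With 1 library left out, genes called ranged from 840 to 1932 higher and from 518 to 1582 lower, members from 1 to 5 higher and 0 to 2 lower, RB kinase and inhibitor genes from 1 to 3 higher, DREAM genes from 2 to 3 higher and 0 to 2 lower, G1/S genes from 6 to 16 higher and 0 to 1 lower, G2/M genes from 7 to 21 higher, E2f6 partners from 0 to 1 higher, and germ line genes from 0 to 1 higher and 0 to 1 lower. The log2 fold change of E2f4 ran from -0.29 without Mettl3-deficient replicate 2 to 0.19 without replicate 3. The cause of these shifts was not tested. E2f7 had at most 34 counts in a library.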
